A study of Mus musculus with 3 samples.

Results

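The aquaporins are the membrane channels for water, and the 8 members of the mouse family described here are Aqp1, Aqp3, Aqp4, Aqp5, Aqp7, Aqp8, Aqp9 and Aqp11. They were chosen by gene symbol, with every array probe that the platform annotation pairs with 1 of these symbols, which gave 17 probes of 45281 and 8 genes of 19057. The family was picked because Aqp1 was already known to have a large ratio of BM 2nd to parental intensity on these arrays, so the values of Aqp1 are a description and no support is drawn from them. RNA was compared between the LLC/luc parental line and its bone sub-lines, LLC/luc BM 1st and BM 2nd. All of them are Lewis lung carcinoma cells, a tumour line of C57BL/6 mice, that carry luciferase and were grown in serum-containing medium, with no treatment listed. BM 1st cells were cultured from a tibial lesion after intracardiac injection of the parental line, and BM 2nd cells from a bone lesion after BM 1st cells had been injected in the same way. Each sub-line is therefore a culture from bone that may still hold host cells, and BM 2nd cells descend from BM 1st cells. The labels call the cell type of all 3 samples osteotropic, parental cells included, and tell them apart by cell subtype.

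Aquaporins sit in the membrane as tetramers in which every subunit has its own pore. Some pass water alone, and the aquaglyceroporins also pass glycerol and other small uncharged solutes. Aqp1 is the water channel of red cells, capillary endothelium and the kidney proximal tubule. In solid tumours it is best known from the vessels, and in cell culture it has been linked to migration.

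Each line was read on a single Illumina mouse bead array. Precision is limited by that number of arrays, since no value has a replicate and p-values cannot be given. The deposited values are linear intensities whose sorted lists differ between arrays by at most 0.274, which shows that they had been quantile normalized, and the lowest is 60.2, so the background is still in them. A probe was taken as above background when it exceeded 95% of the 1503 probes for odorant and vomeronasal receptors, genes of sensory neurons, on the same array, which was 109 in the parental line, 110 in BM 1st and 107 in the BM 2nd line. A gene was read from the probe with its highest mean log2 intensity. It was compared when either of the 2 arrays showed that probe above background, and called higher or lower when its log2 ratio was past 1 or -1, the threshold of the study's methods. The receptor probes give a scale for noise between arrays. Their log2 ratios had an SD of 0.12 in each of the 3 comparisons, and none was past 1 or -1. Of 13 markers of lung epithelium 5 were above background on any array. Keratins Krt8 and Krt18 were bright. Krt8 was called higher in BM 2nd against BM 1st cells, at a log2 ratio of 1.33, and its other probe was not above background. Krt18 went the other way in that comparison, at -0.84, and was not called. Cdh1 was near background at 121, 116 and 125 in parental, BM 1st and BM 2nd cells, and Ager was above it at 134, 140 and 128. Pdpn had 108, 215 and 125, below background in parental cells, with a BM 1st over parental log2 ratio of 0.99. Epcam, Nkx2-1 and the surfactant genes Sftpa1, Sftpb, Sftpc and Sftpd were not above background on any array.

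To place the family in the genome, the start regions of 3 members are printed from RefSeq, build GRCm38.p6, from 250 bases before to 50 bases after the start of the gene. They are Aqp1, the member with the large ratio, and Aqp5 and Aqp11, the members above background on all 3 arrays. Aqp1 is on chromosome 6 (chr6:55336049-55336348, plus strand), Aqp5 on chromosome 15 (chr15:99590778-99591077, plus strand) and Aqp11 on chromosome 7 (chr7:97738198-97738497, minus strand). Capitals mark every match, on either strand, to 8 short motifs: TATAAA for the TATA box, CCAAT for the CCAAT box, GGGCGG for the GC box, CACCC for the CACCC box, ACGTG for the core of the hypoxia response element, TGACTCA for an AP-1 site, TGTTCT for the core bound by the glucocorticoid receptor and TGGAAA for the core of the tonicity element.
Aqp1: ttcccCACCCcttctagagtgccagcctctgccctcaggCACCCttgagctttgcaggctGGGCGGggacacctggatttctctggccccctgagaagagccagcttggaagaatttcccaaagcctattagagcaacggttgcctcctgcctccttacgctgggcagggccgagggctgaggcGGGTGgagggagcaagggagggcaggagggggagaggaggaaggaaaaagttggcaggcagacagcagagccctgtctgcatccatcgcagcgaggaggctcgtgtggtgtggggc
Aqp5: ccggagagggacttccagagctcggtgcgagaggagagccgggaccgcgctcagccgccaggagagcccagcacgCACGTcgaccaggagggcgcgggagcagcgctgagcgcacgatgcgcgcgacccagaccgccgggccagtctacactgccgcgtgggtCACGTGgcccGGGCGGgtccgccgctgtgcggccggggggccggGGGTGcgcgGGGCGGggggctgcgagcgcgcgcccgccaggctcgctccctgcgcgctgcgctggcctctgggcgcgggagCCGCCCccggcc
Aqp11: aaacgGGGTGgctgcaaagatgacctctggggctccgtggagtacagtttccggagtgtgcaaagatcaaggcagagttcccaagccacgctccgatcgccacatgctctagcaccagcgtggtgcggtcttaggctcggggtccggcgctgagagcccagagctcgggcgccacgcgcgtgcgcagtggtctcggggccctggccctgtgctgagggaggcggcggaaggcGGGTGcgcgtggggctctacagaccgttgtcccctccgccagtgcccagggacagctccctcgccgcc
The Aqp1 window held 1 GC box and 3 CACCC boxes, none overlapping another, and no match to the other 6 motifs. Of all 32851 such windows 35.7% held a GC box and 57.5% a CACCC box, so both are common. The Aqp5 window held 3 GC boxes, 1 CACCC box and 3 matches to ACGTG, and 2 of these ACGTG matches overlap because they read the same bases on opposite strands. The Aqp11 window held 2 CACCC boxes and none of the other 7 motifs. ACGTG stood in 19.6% of all windows, TATAAA in 13.6%, CCAAT in 37.4%, TGACTCA in 5.2%, TGTTCT in 19.0% and TGGAAA in 21.4%. The Aqp1 window was 62.7% G and C with 8 CpG, that of Aqp5 79.7% with 46 CpG and that of Aqp11 68.0% with 27 CpG, beside medians of 52.7% and 7 CpG over all windows. A match is a description of the letters, and a missing match says only that these letters are not in this window.

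Aqp1 was higher after each round of bone selection and was the only aquaporin called in any of the 3 comparisons. On its brightest probe the intensity was 105 in the parental line, 576 in BM 1st and 2268 in the BM 2nd line. The parental array was not above background, and both sub-lines were far above it. The second probe gave 108, 297 and 937 in the same order, and the third gave 99.1, 154 and 445. All 3 probes were thus below background in parental cells and above it in both sub-lines, with the order parental, BM 1st, BM 2nd on each of them. The probes were read on the same 3 RNA samples, so they repeat the measurement but not the cell lines.

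**Figure D1:**
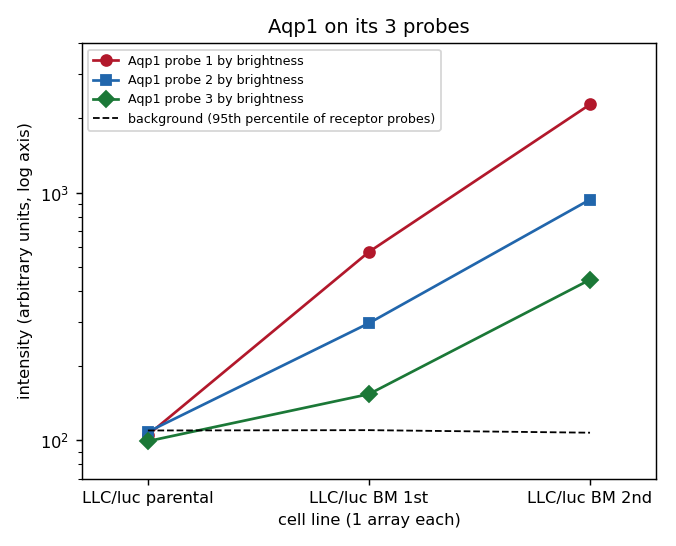
Intensity (vertical log axis, arbitrary units) of the 3 Aqp1 probes, 1 coloured line per probe, in cells of the parental, BM 1st and BM 2nd lines (1 array per line), with the background of each array as a dashed line. All 3 probes start below background, between 99.1 and 108, and reach 445 to 2268 in BM 2nd cells.

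For BM 2nd against parental cells the measured log2 ratio was 4.43 on the brightest probe, 3.12 on the second and 2.17 on the third. Because parental cells were not above background, they are limited by that background, and the bright intensity over it put BM 2nd cells at least 20.7-fold, 8.56-fold and 4.06-fold higher. For BM 1st against parental cells the log2 ratios of the probes were 2.46, 1.46 and 0.63, with bounds of at least 5.26-fold, 2.71-fold and 1.40-fold. The third probe alone would not have been called there. Between the sub-lines, where all probes were above background on both arrays, the log2 ratios of BM 2nd to BM 1st cells were 1.98, 1.66 and 1.53, or 3.94-fold, 3.16-fold and 2.90-fold. The dimmer a probe, the smaller was its ratio in each comparison.

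The share of the Aqp1 gain that was already there after the first round ranged from 15.7% to 22.8% over the 3 probes. The intensity gained over parental cells was 471 after the first selection and 2163 after the second on the brightest probe, so that BM 1st cells had 21.8% of the gain of BM 2nd cells. On the second probe the gains were 189 and 829, a share of 22.8%, and on the third 54.4 and 346, a share of 15.7%. Unlike ratios, these differences do not carry the background, but each rests on 3 single arrays. In RNA of a whole culture, more cells that express Aqp1 and more Aqp1 RNA per cell cannot be told apart.

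None of the other aquaporins was called higher or lower in any comparison, and most were close to or below background. With the background subtracted, Aqp3 and Aqp5 passed the threshold in BM 1st cells, as given for each gene. Of the 8 members 2 were above background in the parental line, 5 in BM 1st and 4 in the BM 2nd line. By probe, 7 of 17 were above it on any array, and the other 10 lay between 85.5 and 109 on every array. Of the 8 members 4 exceeded background on the BM 2nd or the parental array and entered that comparison, and 1 of them, Aqp1, was called higher, where 1.83% of all 10578 genes compared were higher and 1.53% lower. The rule that chose the family used this comparison, so nothing is read from that share. Of 5 members compared between BM 1st and parental cells 1 was higher, against 2.04% of all genes higher and 1.79% lower, and of 5 compared between BM 2nd and BM 1st cells 1 was higher, against 3.01% higher and 1.78% lower. In each case it was Aqp1. Both of these comparisons share an array with the one that led to the choice, so nothing is read from their shares either. The median log2 ratio of the compared members was 0.11 for BM 2nd over parental cells, beside 0.0071 for all genes compared. It was 0.28 for BM 1st over parental cells, beside -0.0079, and -0.18 for BM 2nd over BM 1st cells, beside -0.012. A member that enters only through the array where it is brighter had to differ, so these medians describe the compared members and not the family. Without Aqp1 the 14 remaining member probes had log2 ratios between -0.14 and 0.23 for BM 2nd over parental cells, between -0.35 and 0.44 for BM 1st over parental cells, and between -0.33 and 0.22 for BM 2nd over BM 1st cells. All of these lay within the full range of the receptor probes in the same comparison.

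**Figure D2:**
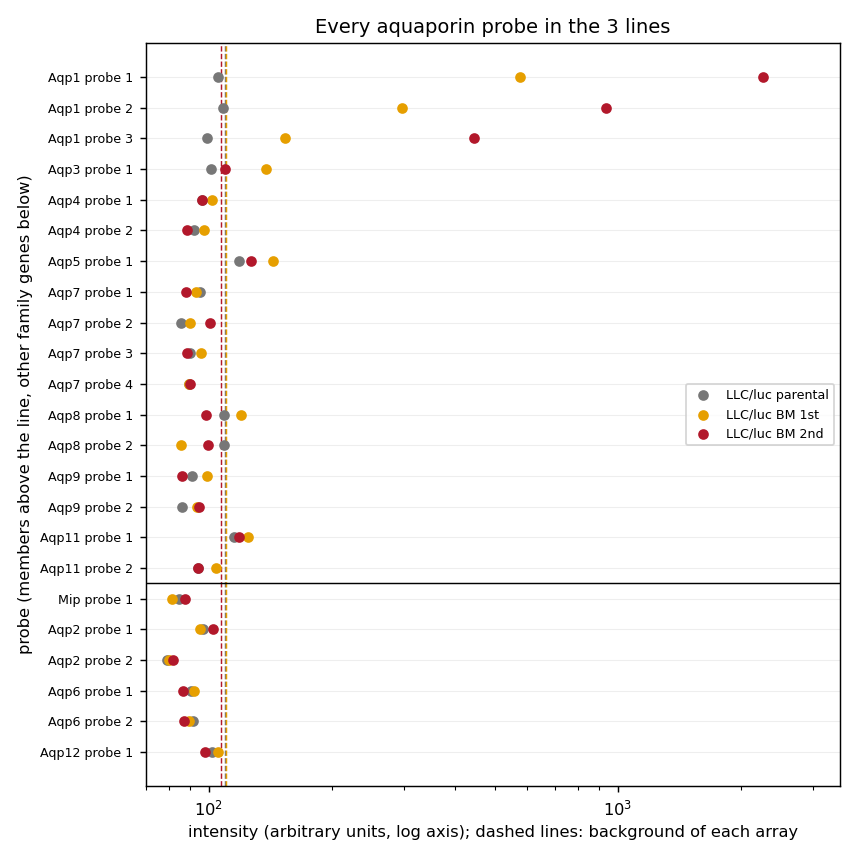
Intensity (horizontal log axis, arbitrary units) of every aquaporin probe, 1 row per probe, with 1 point for each line (parental, BM 1st, BM 2nd) and a dashed line at the background of each array. The 3 Aqp1 rows spread out to 2268 in BM 2nd cells, while the other 20 rows stay at or near background, none above 143.

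Aqp5, the water channel of salivary and lacrimal glands and of alveolar type I cells, was above background on all 3 arrays. Its single probe had an intensity of 118 in the parental line, 143 in BM 1st and 127 in the BM 2nd line. The log2 ratio of BM 1st to parental cells was 0.28, just outside the middle 95% of receptor probes, which ran from -0.22 to 0.25, and that of BM 2nd cells was 0.10. BM 1st cells were thus the highest for Aqp5, by less than the most extreme receptor probe, at 0.48. With the background subtracted the log2 ratio of BM 1st to parental cells was 1.01, just past the threshold.

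The aquaglyceroporins pass glycerol as well as water. Aqp3, the form of skin and of the basolateral membrane of collecting duct cells, had intensities of 101.4 in the parental line, 138 in BM 1st and 110 in the BM 2nd line on its single probe. Parental cells were below background, BM 1st cells exceeded them by at least 1.26-fold, and the gene was barely above background in BM 2nd cells. Its log2 ratio of BM 1st to parental cells, 0.44, was the highest of any member after Aqp1, outside the middle 95% of receptor probes but below the most extreme of them and below the threshold. With the background subtracted it was 1.45, and that of BM 2nd to BM 1st cells was -1.37 in place of -0.33. Aqp7, the glycerol channel of fat cells, was read by 4 probes and Aqp9, a liver channel for glycerol and urea, by 2, and none of these 6 was above background on any array. The brightest Aqp7 probe stood at 95.1, 93.1 and 87.7 in parental, BM 1st and BM 2nd cells, and the brightest Aqp9 probe at 91.0, 98.8 and 85.9. A second Aqp7 probe, at 85.6, 89.8 and 100.6, had the highest BM 2nd over parental log2 ratio outside Aqp1, 0.23, all of it below background. No fold is given for genes below background on both arrays.

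Aqp8 passes water, ammonia and hydrogen peroxide and is known from the gut, pancreas and liver. Its brightest probe had 109 in the parental line, 120 in BM 1st and 98.5 in the BM 2nd line, and only BM 1st cells were above background. The other Aqp8 probe had 109, 85.5 and 99.7 and was not above background on any array. The probes differed in opposite directions between BM 1st and parental cells, with log2 ratios of 0.14 and -0.35, and again between BM 2nd and BM 1st cells, with -0.28 and 0.22. No direction can be given for Aqp8.

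Aqp11 belongs to the unorthodox branch of the family and lies mostly in the membrane of the endoplasmic reticulum. Its brighter probe stood at 115 in the parental line, 124 in BM 1st and 118 in the BM 2nd line, above background on all 3 arrays, and its log2 ratios were 0.11 for BM 1st and 0.04 for BM 2nd over parental cells. The other probe, at 93.9, 104 and 94.1, was not above background. Aqp4, the channel of astrocyte end feet and skeletal muscle, was not above background on either of its 2 probes, the brighter of which gave 96.2, 102 and 96.4. Of the remaining family genes, Mip (the lens channel Aqp0), Aqp2 (the vasopressin-regulated channel of the collecting duct), Aqp6 and Aqp12, none of 6 probes was above background, and their intensities ranged from 79.1 to 105 over the 3 arrays. Close to background an array can hide a difference in RNA, so for these genes none was detectable, which is not a measurement of equal levels.

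Of the neighbouring genes of Aqp1 (NCBI gene 11826) on chromosome 6, 1 was called higher, Inmt, in BM 2nd against BM 1st cells. In that comparison 3.01% of all genes compared were higher, and the BM 1st value of Inmt was below background. Of the 5 nearest protein-coding genes with a probe on each side in RefSeq order, none was past the threshold in BM 2nd against parental cells, and their log2 ratios ran from -0.48 for Gars, a tRNA synthetase gene, to 0.67 for Inmt, an N-methyltransferase gene. Gars had intensities of 19610 in the parental line, 21298 in BM 1st and 14104 in the BM 2nd line. Inmt had 119, 92.4 and 190, and was below background in BM 1st cells, where Aqp1 was already above it. Its log2 ratio of BM 2nd to BM 1st cells was 1.04, past the threshold, beside 1.98 for Aqp1. The genes directly beside Aqp1, Mindy4 and Ghrhr, the receptor of growth hormone-releasing hormone, were not above background on any array. Neighbours were looked up after the values of Aqp1 were known.

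**Figure D3:**
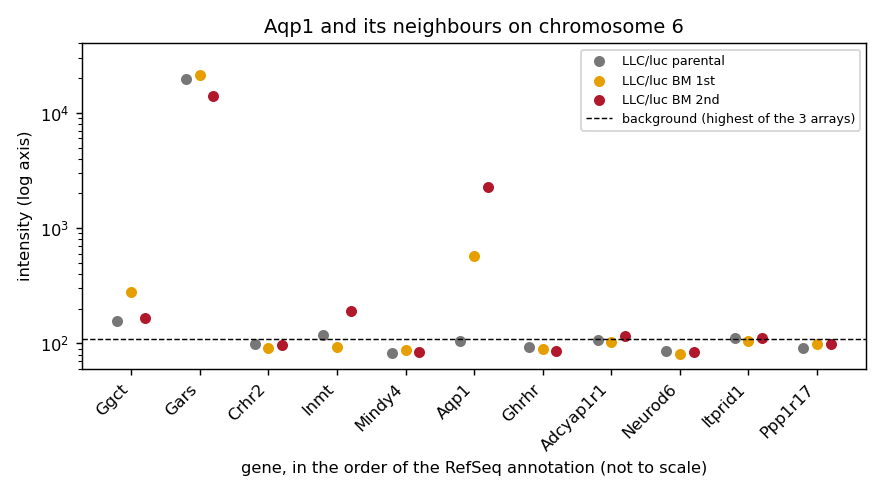
Intensity (vertical log axis) of Aqp1 and of 5 neighbouring genes on each side on chromosome 6, in annotation order and not to scale, with 1 point for each line (parental, BM 1st, BM 2nd) and a dashed line at the highest of the 3 backgrounds. Aqp1 climbs to 2268 in BM 2nd cells while the genes beside it, Mindy4 and Ghrhr, stay below the line.

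The gene with the pattern most like that of Aqp1 over the 3 arrays was Lum, followed on the deposited intensities by Ptn and Dpt. Likeness was the distance between the pairs of log2 ratios to parental cells, for BM 1st and BM 2nd cells, among 10014 other genes above background in BM 2nd cells. No gene lay within 0.5 of Aqp1 and 2 lay within 1. Lum, the proteoglycan lumican of collagen fibrils, was nearest at a distance of 0.86, with 198 in the parental line, 1742 in BM 1st and 6133 in the BM 2nd line. Ptn, a heparin-binding growth factor gene, followed at 0.96, with 1243, 5201 and 14580, although its other probe was not above background. Dpt, a matrix protein gene, came at 1.01 with 142, 418 and 2213. The next were Ugt1a10 at 1.19, the proteoglycan gene Bgn at 1.22, the transcription factor gene Irf1 at 1.23, the chemokine gene Cxcl1 at 1.26, the calcification inhibitor gene Mgp at 1.44, the elastin crosslinking gene Loxl1 at 1.45 and Arhgdib at 1.45. The second probes of Loxl1 and Arhgdib were not above background on any array, nor were Ugt1a10 probes 4, 5 and 6 by brightness. Mgp, like Aqp1, is on chromosome 6, and so are Ptn and Arhgdib. The group is mixed in its timing: Mgp and Loxl1 gained most between BM 1st and BM 2nd cells, with log2 ratios of 3.19 and 2.81 there, whereas Cxcl1 and Arhgdib stood at 0.21 and 0.26. Parental Aqp1 was at background, so its place in this ranking depends on the background level, and after background subtraction 7 of the 10 genes were still among the 10 nearest. Lum stayed nearest, Dpt came at rank 10, and Ptn, Irf1 and Cxcl1 were no longer among them, with Ccl7, Tnfaip3 and Aldoc in their place.

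**Figure D4:**
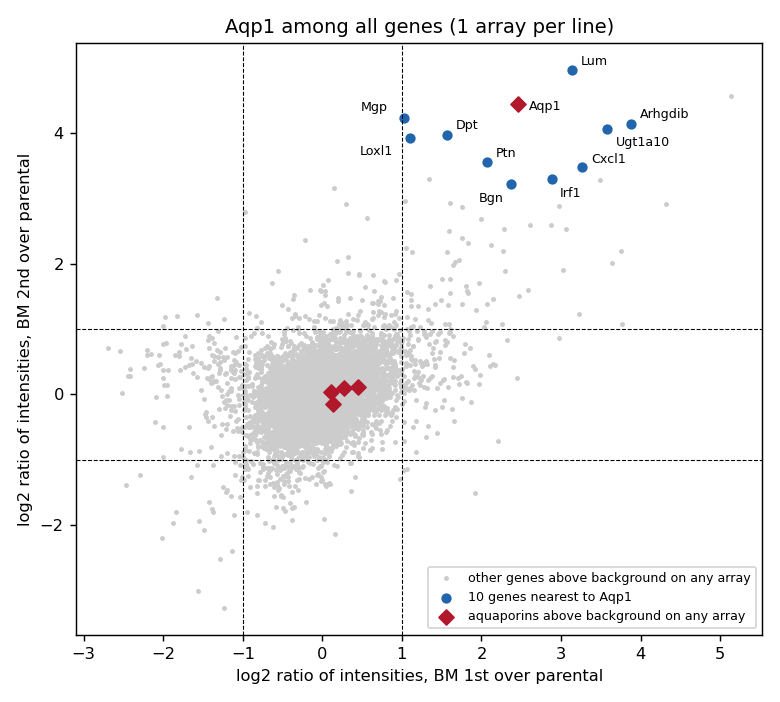
Log2 ratio of BM 1st to parental intensity (horizontal axis) and of BM 2nd to parental (vertical axis) for every gene above background on any array, 1 point per gene and 1 array per line. Aqp1 (red diamond at 2.46 and 4.43) lies between Lum and Ptn among the 10 nearest genes in blue, and the 4 other detected aquaporins lie near the centre, inside the dashed lines at 1 and -1.

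Of the genes of processes that water channels serve, 3 were called in BM 2nd against parental cells, too few to read anything from their shares. In 6 lists around cell volume, ion and solute handling, 43 of 68 genes on the array were compared between BM 2nd and parental cells, 1 was higher and 2 were lower, or 2.33% and 4.65% beside 1.83% and 1.53% of all genes. Their median log2 ratio was 0.05. Carbonic anhydrases hydrate carbon dioxide, a gas that Aqp1 has been reported to pass. Of 8 such enzymes and bicarbonate transporters compared, 1 was higher, Car9, the hypoxia-induced cell surface form, with 96.5 in the parental line, 474 in BM 1st and 355 in the BM 2nd line. BM 2nd cells exceeded parental cells by at least 3.24-fold. Its other probes had log2 ratios of 0.88 and 0.28 and did not pass, and unlike Aqp1 it stood lower in BM 2nd cells than in BM 1st cells, at a log2 ratio of -0.42. Car2, the cytosolic enzyme of red cells and osteoclasts, was not above background on any array.

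Of 13 compared genes of cell volume regulation none was higher and 1 was lower in BM 2nd cells. It was Stk39, a kinase that activates cation-chloride cotransporters, with 805 in the parental line, 553 in BM 1st and 299 in the BM 2nd line and a log2 ratio of -1.43 to parental cells. Its other probe was not above background. The cotransporter gene Slc12a2 had a log2 ratio of -0.55 and the volume-regulated anion channel gene Lrrc8a one of -0.43, neither past the threshold. Of 4 compared genes of the sodium pump, 1 was lower, the pump regulator gene Fxyd6, with 330 in parental cells and intensities below background in both sub-lines, at 90.3 after the first selection and 85.0 after the second. Fxyd6 was at least 3.08-fold lower in BM 2nd cells. The pump subunit gene Atp1b1 had a log2 ratio of 0.75.

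None of the 4 compared genes of the tonicity response, 5 of glycerol handling and 9 of hydrogen peroxide handling was called in BM 2nd against parental cells. Sgk1, a kinase induced by osmotic stress and steroids, had 11767 in the parental line, 9648 in BM 1st and 10362 in the BM 2nd line. Nfat5, the transcription factor of the tonicity response, had a log2 ratio of 0.62. Pnpla2, the lipase that starts the release of glycerol from fat, had 1197, 1759 and 1145. Prdx4, a peroxiredoxin, had 14760, 15507 and 13683. In BM 1st against parental cells 3 of 42 genes of the 6 lists were higher, 7.14% beside 2.04% of all genes, Car9, the pump regulator gene Fxyd5 and the catalase gene Cat, and 2 were lower, 4.76% beside 1.79%, Fxyd6 and the glutathione peroxidase gene Gpx1. In BM 2nd against BM 1st cells 2 of 44 were higher, 4.55% beside 3.01% of all genes, the bicarbonate exchanger gene Slc4a2 at a log2 ratio of 1.06 and Gpx1 at 1.31, and none was lower, beside 1.78%. These members were named after their values were seen.

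**Figure D5:**
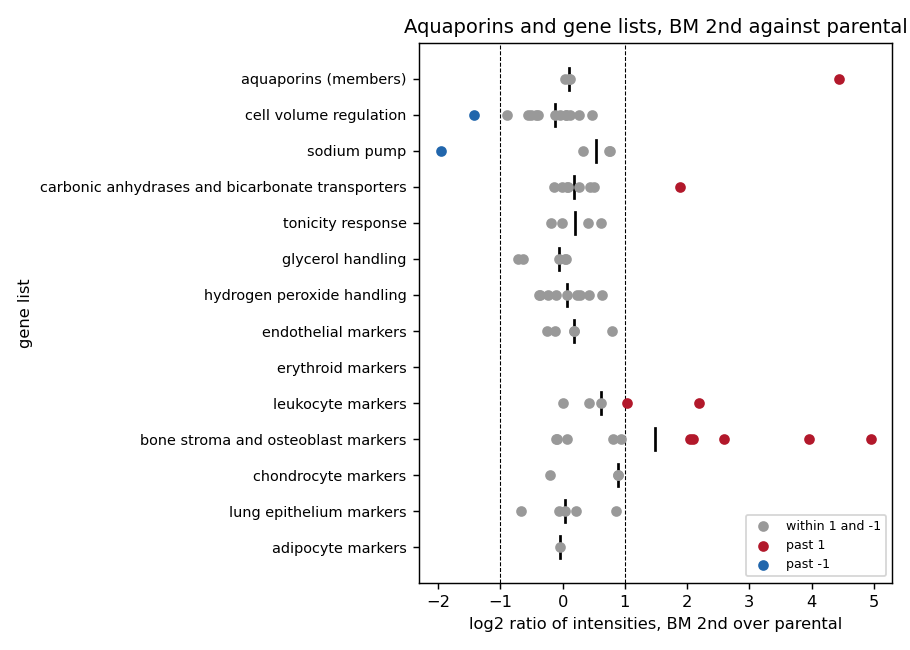
Horizontal axis, log2 of BM 2nd over parental intensity for the aquaporins, for 6 lists around them and for 7 lists of cell type markers, 1 point per gene above background on either array, with list medians as black bars and dashed lines at 1 and -1. Aqp1 at 4.43 is alone at the right in the aquaporin row, no erythroid marker was compared, and of the marker lists only those of bone stroma and leukocytes hold red points past 1.

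Cells that carry Aqp1 in the body were looked for by their markers. Of 12 endothelial markers 7 were not above background on any array, Pecam1, Cdh5, Vwf, Emcn, Tie1, Esam and Cldn5, and none of the 5 compared was called in BM 2nd against parental cells. Of those 5, Plvap, a gene of fenestrated endothelium, had 119, 121 and 205, a log2 ratio of 0.79 for BM 2nd over parental cells, and the VEGF receptor gene Kdr had 111, 126 and 126. Eng had 415, 259.7 and 347, and Tek was above background in parental cells only, at 115. Egfl7, the brightest of the list, had 1637 in the parental line, 1156 in BM 1st and 1856 in the BM 2nd line. The summed intensity of the list was 3074 in the parental line, 2432 in BM 1st and 3311 in the BM 2nd line. Of 6 erythroid markers on the array 5 were not above background on any array, including Hba-a1, Alas2, Slc4a1 and Klf1, and Rhag was above it only in BM 1st cells, at 115. Their sum was 568, 555 and 557. Of 7 chondrocyte markers none of the 3 compared was called in BM 2nd against parental cells, and the sum was 2739, 7326 and 4667. On its brightest probe the cartilage collagen gene Col2a1 was above background in BM 2nd cells only, at 106, 91.6 and 196. It was called higher there in BM 2nd against BM 1st cells at a log2 ratio of 1.10. Because BM 1st cells were below background, the bound was at least 1.79-fold. Its other probes had log2 ratios of 0.46 and 0.39 in that comparison and did not pass. The brighter of these was also above background in parental cells, at 115. The brightest gene was Sox9, with 2160, 6746 and 4010 and past the threshold in BM 1st against parental cells at a log2 ratio of 1.64, whereas Acan, Matn1 and Matn3 were not above background on any array. The part of any of these cell types in the Aqp1 values was not tested.

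Among markers of bone stroma and osteoblasts, some matrix and stromal genes were higher along with Aqp1, and others were not. Of 10 compared between BM 2nd and parental cells 5 were higher, against 1.83% of all genes, and 0 lower, at a median log2 ratio of 1.49, and the summed intensity of the list was 3366 in the parental line, 10759 in BM 1st and 18568 in the BM 2nd line. The 5 were Lum, Dcn, Dpt, Col1a1 and Pdgfra, and the study chose Lum, Dcn and Dpt on these arrays. Those chosen genes enter the count, the median and the sum, so nothing is read from that share. Lum and Dpt are described above, Dcn had 1027, 6259 and 6174, and Col1a1, a main collagen of bone, had 96.0, 120 and 412. Pdgfra, a receptor gene of mesenchymal cells, had 258, 851 and 1068. Its other probe had 109, 110 and 124, a BM 2nd over parental log2 ratio of 0.19 that did not pass. The second Dcn probe passed there at 2.52, the third did not at 0.47, and the fourth was not above background. Col3a1 had 1107, 833 and 1946 and passed the threshold only in BM 2nd against BM 1st cells. Of the osteoblast genes, Alpl had 139, 139 and 129, Sp7 had 103, 101.1 and 197 with a log2 ratio of 0.93 for BM 2nd over parental cells, and Bglap was not above background on any array. Col1a2 stood at 110, 107 and 104. Leukocyte markers summed to 899.7 in the parental line, 2407 in BM 1st and 1351 in the BM 2nd line. In BM 2nd against parental cells 2 of 5 compared were called higher, beside 1.83% of all genes, Lyz2 at a log2 ratio of 2.20 and Laptm5 at 1.03. The second Lyz2 probe had 0.93 there and did not pass, and the third was not above background. In BM 1st against parental cells 3 of 7 were higher, beside 2.04% of all genes, Lyz2, Laptm5 and Fcer1g. These 3 were below background in parental cells and entered only through the array where they were brighter. Nothing is therefore read from either share. Itgam and Tyrobp were not above background on any array. The leukocyte sum was lower after the second selection than after the first, and Lyz2, its brightest member, fell from 1078 to 365 between them. The members did not all follow the sum. Coro1a, above background on all 3 arrays, rose in the order of Aqp1, at 113, 133 and 173, and was not called. Csf1r, also above background on all 3 arrays, did not keep that order, at 115, 128 and 116. The part of bone stroma or leukocytes in the Aqp1 values was not tested. Of 4 adipocyte markers, the cells that carry Aqp7, 1 was compared and not called, Lep, at 120, 111 and 117.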

How the data were processed

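Total RNA of the 3 lines was read on 1-colour Illumina mouse arrays, with 1 array per line. The deposited intensity values are linear and, per the submitters' processing notes, came from GenomeStudio 2011.1. Normalization and background settings: not given in the sources used here. Log2 ratios were taken in Python 3.11.15 (numpy 2.4.6, pandas 2.3.3), and figures drawn in matplotlib 3.10.9. Of 45281 probes 34885 were paired with 1 gene, 18 with several and 10378 with none in the platform annotation, and symbols were updated through the RefSeq table of GRCm38.p6. Promoter windows of RefSeq, build GRCm38.p6, were matched for 7 of the 8 members, all but Aqp4.

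The members and gene lists were chosen with earlier results of these data known. The text names all members, the other aquaporin genes, up to 4 called genes of each list or else its brightest gene, and the 10 genes nearest to Aqp1, and other genes were chosen after their values were seen. With 1 array per line no test across samples exists. The counting script was tested on simulated data. Alternatives varied normalization, background, probe choice, filter and threshold. The columns used hold all per-sample values of the table.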

Additional observations from a re-analysis of the deposited data

How the results depend on the processing

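Aqp1 stayed in the order BM 2nd above BM 1st above parental cells under every alternative of normalization, background and probe. Centring on the 15298 probes that exceeded background on every array moved all ratios by less than 0.01, by 0.0050 in BM 2nd against parental cells. With the receptor median subtracted, its log2 ratios were 7.02 for BM 2nd over parental, 4.85 for BM 1st over parental and 2.17 for BM 2nd over BM 1st cells, and the first 2 rest on the floor set for parental cells. They were 3.24, 1.51 and 1.72 as a mean over the 3 probes, and 3.12, 1.46 and 1.66 on the second probe. The count of members called, 1 in each comparison, became 0 for both comparisons with parental cells when both arrays had to be above background. It became 3 for BM 1st over parental cells after subtraction, where Aqp3 and Aqp5 reached 1.45 and 1.01, and 2 for BM 2nd over BM 1st cells, where Aqp3 reached -1.37. Past a log2 ratio of 2 it was 0 for BM 2nd over BM 1st cells. The log2 ratio of Aqp8 for BM 1st over parental cells was -0.35 on its second probe and -0.11 as a mean of its probes, in place of 0.14.

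For the 6 lists around the aquaporins the same settings were added after the data were seen. The genes called in BM 2nd against parental cells, 3, became 0 on second probes, 1 with both arrays above background, 0 past a log2 ratio of 2 and 13 past 0.5. Those in BM 1st against parental cells, 5, became 3 on second probes, 3 with both arrays above background, 1 past 2 and 9 past 0.5. Those in BM 2nd against BM 1st cells, 2, became 5 after subtraction, 0 on second probes, 0 past 2 and 9 past 0.5. The called genes Fxyd6, Slc4a2 and Gpx1 have 1 probe each and could not be called on second probes. For them the counts on second probes say nothing about probe choice. No paired analysis was possible because each line has 1 array, which also leaves no replicate to leave out. Signal over background limits every member, Aqp1 in parental cells included: ratios of dim probes understate changes in RNA.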

Other observations

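Aqp5 lies between Aqp2 and Aqp6 in RefSeq order on chromosome 15, and the 3 genes did not share a detected signal. Aqp5 had intensities of 118 in the parental line, 143 in BM 1st and 127 in the BM 2nd line, the brightest Aqp2 probe had 96.9, 95.3 and 102, and the brightest Aqp6 probe had 90.3, 91.9 and 86.5, both below background on all arrays. Asic1, an acid-sensing ion channel gene beyond Aqp6, was above background on all 3 arrays, at 208 in the parental line, 255 in BM 1st and 296 in the BM 2nd line, a BM 2nd over parental log2 ratio of 0.51. These neighbours were looked up after the values were seen.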
